A study of Arabidopsis thaliana and Boechera depauperata with 12 samples.

Results

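The comparison described here sets *Arabidopsis thaliana* plants given acquired heat stress (A/HS) against control plants, across all nuclear genes. Its members are the 32548 genes of the deposited *A. thaliana* counts whose identifiers place them on chromosomes 1 to 5, of 33977 identifiers in all. Of these, 24601 had at least 1 count, 17405 passed edgeR's filter on low counts and were tested, and 8768 were well counted, which means at least 50 counts in each of the 4 libraries compared. The libraries are W1 and W2 (control), and W5 and W6 (A/HS), 4 of the 12 libraries of the series. Control plants stayed at 22 °C. For A/HS, plants were held at 38 °C for 1 h, returned to 22 °C for 1 h and then held at 43 °C for 3 h. Libraries W3 and W4, from plants moved straight from 22 °C to 38 °C for 3 h (basal heat stress, B/HS), shared the fit and are used to show where A/HS differed from the milder regime. Each condition has 2 biological replicates, grown and prepared separately from germination on, and no genotype or plant age is given in the sources used here. A/HS plants differ from control plants in the pretreatment, the recovery and the 43 °C step together, and the shares of these steps in a change cannot be told apart.

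Plants exposed to a mild heat treatment can later survive a temperature that would otherwise kill them, which is known as acquired thermotolerance. Heat unfolds proteins, and the heat shock factors (HSFs), transcription factors released from chaperones under heat, bind repeated short sequences upstream of chaperone genes and switch them on. Small heat shock proteins (sHSPs) hold unfolding proteins, HSP70 and HSP90 refold them with the help of co-chaperones, and HSP101 pulls aggregates apart.

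The 4 libraries held between 11819511 (W6) and 15297546 (W5) counts, and genes of the chloroplast and the mitochondrion held from 58.1 % (W6) to 74.9 % (W1) of them. This left between 2877735 (W1) and 4823686 (W5) counts on nuclear genes, so that W1 is the shallowest library for every result below. Expression is given as CPM, counts scaled to 1000000 per TMM-scaled library. A count of 0 allows up to 0.280 CPM in W1 and between 0.176 and 0.226 CPM in the other 3 libraries, counting error only. The labels name root as the tissue. All 9 green leaf markers were well counted, *RBCS1A* (a Rubisco small subunit) at 3704 and 2758 CPM in the control libraries and 2019.9 and 1536 CPM after A/HS. Of 12 root markers, only *PHO1* and *SULTR1;2* had enough counts to be tested. The other 10, Casparian strip, root hair and root transport genes, summed to 11 and 31 counts in W1 and W2 and to 29 and 155 in W5 and W6. In CPM these sums were 1.03, 1.82, 2.01 and 11.7. The markers therefore go against the label, and W6 held more counts of these 10 markers than the other libraries. *PHO1* had 95, 155, 90 and 120 counts in W1, W2, W5 and W6, and *SULTR1;2* had 67, 115, 72 and 64. Neither passed the test. All 12 markers together took 0.00601 %, 0.00672 %, 0.00396 % and 0.00719 % of the nuclear counts in the same order. In bulk tissue, fewer cells of a type and less RNA per cell cannot be told apart.

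The replicates also differed in ways that touch the results. Among the 163 well counted genes that were called higher after A/HS (defined below), W2 was above W1 in 153, with a median ratio of 1.47, and the median ratio of W6 to W5 in these genes was 1.26. Among well counted genes that were not called, it was above W1 in 50.9 %, and the median ratio over all well counted genes was 1.01. The members of the sHSP list were 2.15 times higher in W2 than in W1 at the median. Fold changes of heat-induced genes therefore depend on which control library is used. Values without each library in turn are given where they change the call of a named gene. They are also given where they move the count of a list by more than 1.5 times. Log2 fold changes of B/HS against control were close together in several strongly induced genes. They were 3.88 in *HSP18.2*, 3.89 in *HSP21*, 3.82 in AT5G48570, 3.70 in *HSFA2*, 3.79 in *MBF1C* and 3.73 in *GolS1*. Others were lower, at 3.14 in *DREB2A* and 1.67 in *RHL41*. The reason was not tested, and control CPM of such genes are to be read with that limit. The plot of both libraries of each group shows both patterns, the heat-induced chaperones above the diagonal among the control libraries and a group of extensin genes above it among the A/HS libraries.

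**Figure D1:**
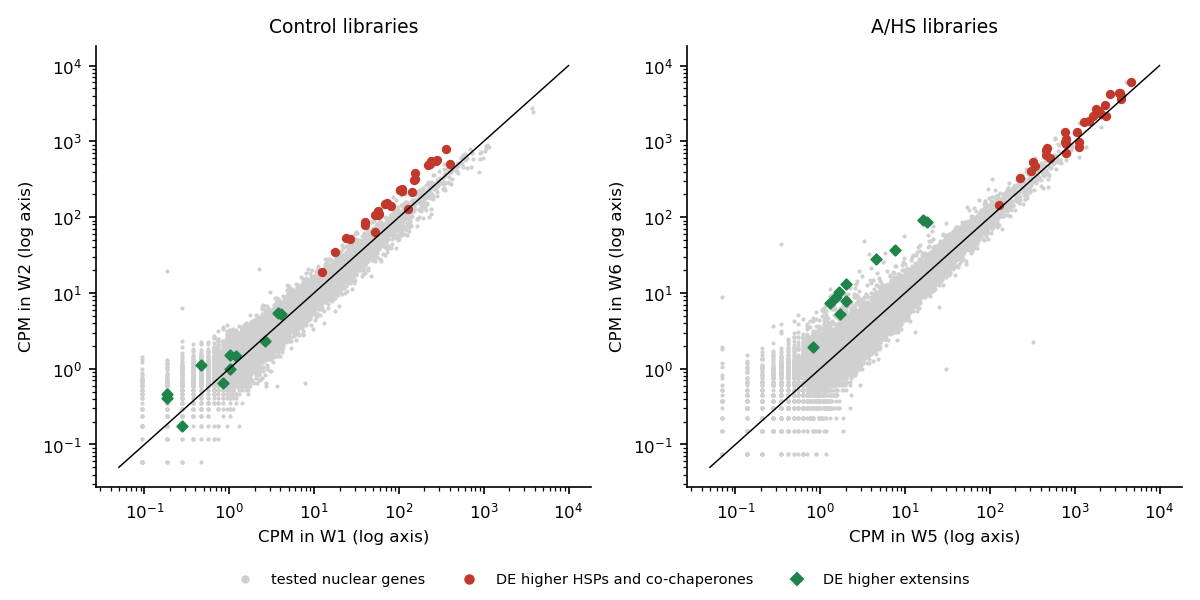
CPM of each tested nuclear gene in W1 against W2 (left) and in W5 against W6 (right), both axes logarithmic, with the line of equal values; genes at 0 in either library are not drawn. Red points are the heat shock proteins and co-chaperones called higher after A/HS and green diamonds the 11 extensins called higher, which W6 holds at several times the CPM of W5.

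Sequences upstream of 7 genes are shown because these genes span the responses described below, and because each holds a motif that is known from its class of genes. They were read from RefSeq (assembly TAIR10.1), run 5′ to 3′ on the gene's strand and end at the base before the annotated start. Capitals mark the match. In the first 5 it is a heat shock element of 3 alternating GAA and TTC units, with 2 bases between units. In *LTI78* it is the dehydration-responsive element (DRE), ACCGAC, which DREB factors are known to bind, and in *FRK1* the W-box, TTGACC or TTGACT, which WRKY factors are known to bind.
AT1G53540 (chr1:19980179-19980298, plus strand): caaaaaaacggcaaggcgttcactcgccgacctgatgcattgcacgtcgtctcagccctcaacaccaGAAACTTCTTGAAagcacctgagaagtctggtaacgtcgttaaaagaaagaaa
HSFA2 (chr2:11135504-11135623, plus strand): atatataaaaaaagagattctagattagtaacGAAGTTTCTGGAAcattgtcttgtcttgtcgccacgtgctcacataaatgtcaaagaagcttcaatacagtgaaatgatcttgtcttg
GolS1 (chr2:19370479-19370598, minus strand): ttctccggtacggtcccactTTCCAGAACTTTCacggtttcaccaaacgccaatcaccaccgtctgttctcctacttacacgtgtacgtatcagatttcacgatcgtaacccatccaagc
HSFA7A (chr3:19264941-19265140, plus strand): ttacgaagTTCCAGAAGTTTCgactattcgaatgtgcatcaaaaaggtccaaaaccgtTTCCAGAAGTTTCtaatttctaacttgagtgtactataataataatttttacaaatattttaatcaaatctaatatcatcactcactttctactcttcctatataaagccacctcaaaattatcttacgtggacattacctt
DREB2A (chr5:1602005-1602204, plus strand): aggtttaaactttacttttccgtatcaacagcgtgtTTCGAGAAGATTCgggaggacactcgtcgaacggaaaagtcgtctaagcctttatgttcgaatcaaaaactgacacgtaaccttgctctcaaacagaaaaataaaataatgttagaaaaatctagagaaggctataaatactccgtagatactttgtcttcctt
LTI78 (chr5:21240467-21240716, plus strand): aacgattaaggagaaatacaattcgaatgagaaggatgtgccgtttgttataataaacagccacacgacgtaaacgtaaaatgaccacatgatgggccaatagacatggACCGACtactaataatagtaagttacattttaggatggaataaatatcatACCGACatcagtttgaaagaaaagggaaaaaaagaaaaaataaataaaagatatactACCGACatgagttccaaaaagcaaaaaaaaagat
FRK1 (chr2:8329945-8330194, minus strand): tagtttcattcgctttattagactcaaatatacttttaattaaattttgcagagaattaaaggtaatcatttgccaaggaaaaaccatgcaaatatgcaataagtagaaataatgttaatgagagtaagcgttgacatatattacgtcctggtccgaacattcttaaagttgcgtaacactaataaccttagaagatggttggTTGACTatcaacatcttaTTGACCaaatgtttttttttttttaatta
The heat shock element starts 53 bases before the start of AT1G53540, 88 before *HSFA2*, 100 before *GolS1* and 164 before *DREB2A*. *HSFA7A* holds 2 of them, 142 and 192 bases before its start. *LTI78* holds 3 DREs between 34 and 141 bases before its start, and *FRK1* holds 2 W-boxes, 29 and 47 bases before its start.

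After A/HS, most chaperones, galactinol synthases and dehydration genes and many heat shock factors were higher than in control plants, and many genes of cell wall growth, immune signalling, glucosinolate synthesis and histones were lower. DE genes are those with an adjusted *P* (Benjamini-Hochberg, edgeR's quasi-likelihood test) under 0.05 that also changed by 4-fold or more. "Rose" and "fell" are used for the adjusted *P* alone. Of the 17405 tested genes, 1085 were DE, 510 of them higher (2.93 %) and 575 lower (3.30 %). The adjusted *P* alone was passed by 3176 rises (18.25 %) and 2987 falls (17.2 %). Among the 8768 well counted genes, 163 were DE higher (1.86 %) and 53 DE lower (0.604 %). The median log2 fold change over all tested genes was 0.02, and the middle 80 % lay between −1.23 and 1.07. It was 2.74 for DE higher genes and −2.47 for DE lower genes. With 2 libraries against 2, an exact two-sided permutation test cannot go below *P* = 0.333, and the calls use the dispersion that edgeR shares among genes. Both A/HS libraries were above both control libraries in 34.7 % of the tested genes and below both in 33.7 %, and a statement below that groups did not overlap is to be read beside these shares.

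**Figure D2:**
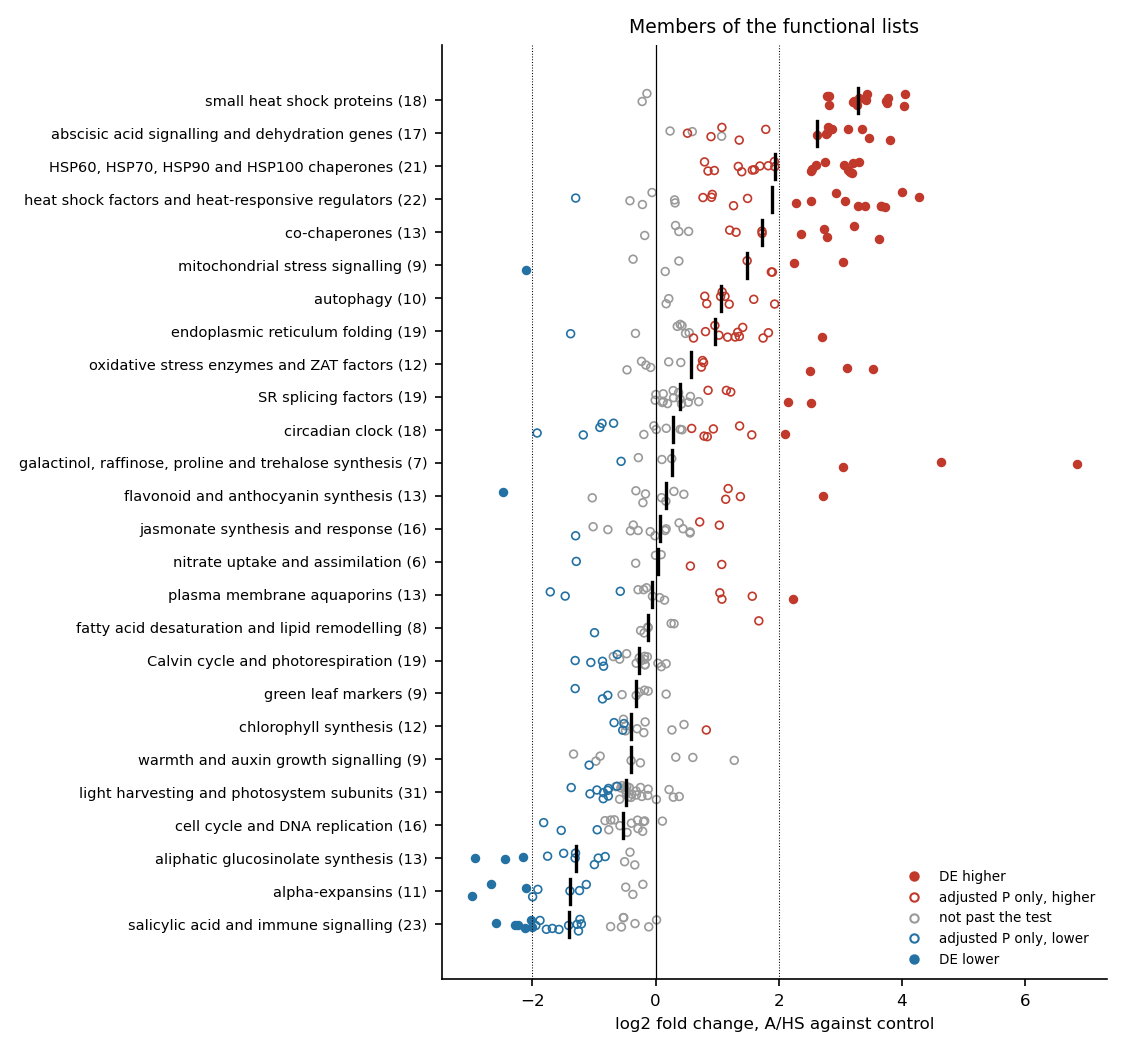
Log2 fold change (A/HS against control) of each tested member of the functional lists, with the number tested in brackets; the black bar is the list's median and the dotted lines mark 4-fold. The sHSP list has the highest median (3.29) and the list of salicylic acid and immune signalling the lowest (−1.41), beside 0.02 over all tested genes.

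Nearly all sHSPs were far higher after A/HS. Of 18 members, 16 were DE higher, 2 did not pass the test, and the list's median log2 fold change was 3.29. In the control libraries they took 0.593 % (W1) and 1.32 % (W2) of the nuclear counts, and after A/HS 6.86 % (W5) and 8.80 % (W6). *HSP18.2* took the most counts of any well counted DE gene after A/HS. It was at 238 and 549 CPM in W1 and W2 and at 4649 and 6134 CPM in W5 and W6. Both A/HS libraries stood far above both control libraries, and the log2 fold change was 3.78 ± 0.44 (SE), adjusted *P* = 3.55e-05. AT1G52560 and AT5G37670, a pair of HSP20-like chaperones counted at lower CPM, had the largest fitted changes of the list against control. AT1G52560 went from 24.0 and 53.2 CPM to 475 and 814 CPM, a log2 fold change of 4.05 ± 0.38 (adjusted *P* = 8.15e-06, edgeR). AT5G37670 was at 17.45 and 34.2 CPM in the control libraries and at 321 and 531 CPM after A/HS, 16.3-fold higher. Neither overlapped between the groups. Their log2 differences of A/HS from B/HS, 0.18 ± 0.34 and 0.28 ± 0.30, did not pass the test.

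The other sHSPs serve different compartments. The chloroplast protein *HSP21* went from 67.8 and 150.1 CPM to 1056 and 1319 CPM, and *HSP23.6-MITO* of the mitochondrion from 109 and 238 to 1479.6 and 1837 CPM. *ATHSP22.0* of the endoplasmic reticulum was at 56.1 and 121 CPM in control plants and 768 and 985 CPM after A/HS. These 3 genes, of 3 compartments, had log2 fold changes of 3.44, 3.26 and 3.31. The class II cytosolic *HSP17.6A* and the HSP20-like AT2G29500 gave log2 fold changes of 3.76 and 3.74, and AT1G53540, whose upstream sequence is shown above, gave 3.41 ± 0.41. AT1G07400, another HSP20-like chaperone, went from 230.0 and 506 CPM to 2595 and 4227 CPM. AT5G54660 and AT4G21870 were the 2 members that did not pass the test, with log2 fold changes of −0.14 and −0.22. AT4G21870 was at 13.2 and 12.6 CPM in control plants and 10.4 and 11.8 CPM after A/HS. The count of 16 held without each of the 4 libraries in turn, while the list's median moved from 2.86 without W1 to 3.92 without W2.

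Against B/HS, which shares the control libraries with A/HS, the direct contrast of the same fit was used. Over all tested genes, 1104 were higher after A/HS than after B/HS (6.34 %) and 1248 lower (7.17 %) by the adjusted *P*. Of the 18 sHSPs, 0 were higher and 1 was lower. This was AT5G51440, at 1324 and 984 CPM after B/HS and 453 and 662 CPM after A/HS (log2 difference −1.05 ± 0.32, adjusted *P* = 0.0444, edgeR). *HSP18.2* was at 5938 and 5691 CPM after B/HS, and its log2 difference of −0.11 ± 0.39 (adjusted *P* = 0.882) did not pass. Of the 163 well counted DE higher genes, 14 were higher and 12 lower after A/HS than after B/HS.

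Of the 21 members of the HSP60, HSP70, HSP90 and HSP100 list, all 21 rose and 10 were DE, with a median log2 fold change of 1.94. Their share of nuclear counts was 1.08 % and 1.52 % in W1 and W2 and 5.84 % and 6.05 % in W5 and W6. *Hsp70b*, a cytosolic HSP70, went from 273 and 556 CPM in the control libraries to 3378 and 4284 CPM after A/HS. *HSP90.1*, the heat-inducible HSP90 of the cytosol, went from 281 and 571 to 3472 and 3672 CPM. In both genes the A/HS libraries lay well above W2, the higher control library, and the log2 fold changes were 3.21 ± 0.41 and 3.07 ± 0.39. *HSP101*, the cytosolic disaggregase that acquired thermotolerance is known to need, was at 154 and 317 CPM and then at 2023 and 2291 CPM (3.19 ± 0.38, adjusted *P* = 3.89e-05, edgeR). Its relatives *CLPB3* of the chloroplast and *CLPB4* of the mitochondrion had log2 fold changes of 3.16 and 3.12, and the cytosolic *HSP70* had one of 3.30 ± 0.38. *HSA32*, known for keeping acquired thermotolerance over time, was at 51.7 and 63.2 CPM and 302 and 402 CPM (2.61 ± 0.24).

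Other chaperones of the list rose less. *HSP81-2*, a further cytosolic HSP90, was at 402 and 509 CPM in control plants and 2248 and 2987 CPM after A/HS (2.52 ± 0.33), and its close copy *HSP81-3* gave 1.57 ± 0.26, with an uncertain split of reads between the copies. *HSC70-1*, the HSP70 that is abundant without stress, was at 549 and 509 CPM in control plants and 933 and 905 CPM after A/HS, the smallest change of the list at 0.80 ± 0.26 (adjusted *P* = 0.0294, edgeR). The libraries of *HSC70-1* did not overlap between the groups, and B/HS plants had more, at 2054 and 1632 CPM. *HSC70-1*, *HSP60*, *Hsp89.1* and *cpHsc70-2* were the 4 members lower after A/HS than after B/HS, by log2 differences of −1.0, −1.18, −0.82 and −0.83. Against control, all 4 rose, by log2 fold changes of 0.80, 1.83, 1.94 and 0.85. None of the 21 was higher after A/HS than after B/HS.

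Most co-chaperones rose with the chaperones they serve. Of 13 tested, 9 rose, 5 of them DE, and the median was 1.73. *BAG6*, a calmodulin-binding BAG protein, went from 57.0 and 113 CPM to 1131 and 974 CPM (3.63 ± 0.34, adjusted *P* = 8.15e-06, edgeR). *Hop3*, which links HSP70 to HSP90, went from 104 and 227 to 1284 and 1814 CPM. AT5G48570, an FKBP-type peptidyl-prolyl isomerase, took many counts in every library, 358 and 803 CPM in control plants and 3357 and 4414 CPM after A/HS. The A/HS libraries did not overlap the control libraries in these 3 genes. *ROF1*, of the same isomerase family as AT5G48570, had a log2 fold change of 2.37 ± 0.31 and the HSP70 nucleotide exchange factor *Fes1A* one of 2.78 ± 0.33. AT2G20560, a DNAJ protein outside the list, was at 15.5 and 22.8 and 208 and 261 CPM, 12.1-fold higher. *Hop1* and *HSBP*, a protein that binds HSFs, did not pass the test, at 0.32 and −0.18. Over the whole DNAJ family, 7 of 109 tested genes were DE higher and 2 DE lower, with a median of 0.12.

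Most folding genes of the endoplasmic reticulum rose, 1 of them by 4-fold or more. Of 19 tested, 12 rose and 1 was DE, *ATERDJ3A*, a DNAJ protein of that compartment, at 9.52 and 20.2 CPM and 78.1 and 118 CPM (2.70 ± 0.32). *BIP1* and *BIP2*, the HSP70s of the endoplasmic reticulum, gave 1.83 ± 0.26 and 1.75 ± 0.27, and their near-identical sequences make the split between them uncertain. *CRT3*, a plant-specific calreticulin, fell from 57.6 and 63.9 CPM to 23.4 and 23.3 CPM. Without W2, 2 genes of this list were DE higher. Of the 19 genes, 7 were lower after A/HS than after B/HS and 0 higher. *P58IPK* was among them, at 76.7 and 58.8 CPM after B/HS and 28.1 and 31.7 CPM after A/HS, and it did not pass the test against its control values of 22.6 and 22.7 CPM (0.40 ± 0.20).

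Most transcription factors of the heat response rose. Of 22 tested, 11 were DE higher, 5 more rose, 1 fell and 5 did not pass the test. *DREB2A*, which is known to drive *HSFA3* and dehydration genes, went from 6.06 and 9.17 CPM in control plants to 118 and 129 CPM after A/HS. All A/HS values were more than 10 times the control values, and the log2 fold change was 4.0 ± 0.24 (adjusted *P* = 8.85e-07, edgeR). *HSFB2A*, a class B factor of the kind that can repress transcription, went from 5.50 and 6.88 to 71.5 and 86.6 CPM (3.66 ± 0.22). *HSFA2*, which sustains the response under repeated heat, was at 63.2 and 137 CPM and 588 and 1114 CPM (3.08 ± 0.41). *HSFA7A* and *AT-HSFA7B* gave log2 fold changes of 2.93 ± 0.25 and 4.28 ± 0.41, *HSF4*, a class B factor, gave 3.40 ± 0.25, and *MBF1C*, a coactivator that thermotolerance is known to need, gave 3.29 ± 0.34.

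The HSFA1 factors, the master regulators of the response, did not move together. *HSFA1E* rose from 0.933 and 1.94 CPM to 20.9 and 17.9 CPM (3.67 ± 0.29, adjusted *P* = 2.90e-06, edgeR). *HSFA1D* rose less, from 5.41 and 5.94 to 11.1 and 10.5 CPM. *HSF1* and *HSF3*, the genes for HSFA1A and HSFA1B, did not pass the test, at log2 fold changes of −0.06 ± 0.41 and 0.31 ± 0.26. *HSFA8* fell from 5.60 and 5.23 CPM to 2.42 and 1.95 CPM. Against B/HS, *HSFA1E*, *DREB2A* and *HSFB2A* were higher after A/HS, by log2 differences of 1.33 ± 0.24, 0.87 ± 0.20 and 0.72 ± 0.19. *HSFA3* was lower, at 46.8 and 34.1 CPM after B/HS and 12 and 14 CPM after A/HS (log2 difference −1.64 ± 0.21, adjusted *P* = 0.000606, edgeR). *HSFA3* was thus the 1 member of this list lower than after B/HS, and it was still above its control values of 4.2 and 4.94 CPM.

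**Figure D3:**
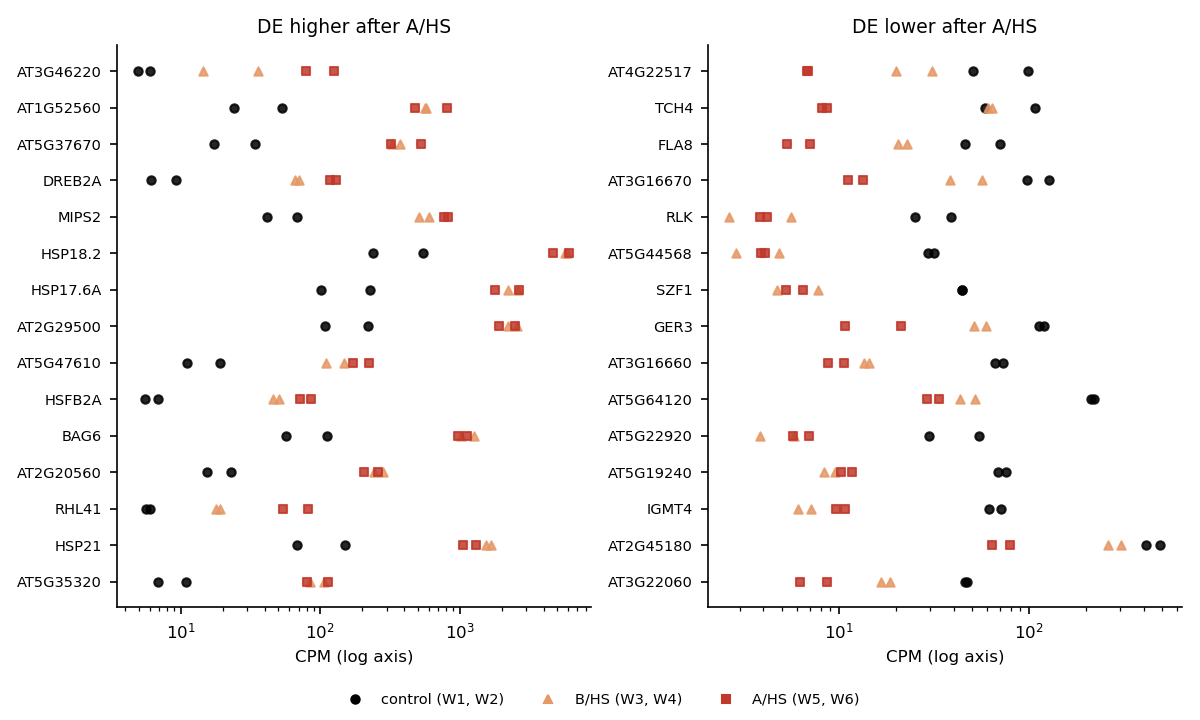
CPM (logarithmic axis) in each of the 6 libraries of the 15 DE higher and the 15 DE lower well counted genes with the largest log2 fold changes; circles are control, triangles B/HS and squares A/HS libraries. The 30 genes were picked for their large changes, so the gap between the A/HS and control libraries follows from the choice. In *TCH4* the B/HS libraries lie with control (63.9 and 60.5 CPM) and A/HS well below it (8.65 and 8.12 CPM).

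Dehydration and abscisic acid (ABA) genes formed the group with the second highest median, 2.62. Of 17 tested, 9 were DE higher, 5 more rose and none fell. *COR47* and *ERD10*, which encode dehydrins, hydrophilic proteins made in drying or chilled tissue, took most of the list's counts. *COR47* went from 86.8 and 103 CPM to 593 and 1068 CPM and *ERD10* from 75.9 and 83.3 to 462 and 645 CPM, with log2 fold changes of 3.13 ± 0.31 and 2.80 ± 0.26. *LTI78*, a DREB target whose 3 DREs are shown above, was at 9.14 and 7.70 CPM in control plants and 59.9 and 55.2 CPM after A/HS. Its 2 libraries were close together in each group, and the log2 fold change was 2.78 ± 0.19 (adjusted *P* = 1.88e-06, edgeR). Of the list, 5 genes were higher after A/HS than after B/HS and 0 lower. They were *LTI78*, *LTI30*, *COR15A*, *HAI2* and *LTI65*, with log2 differences of 1.43, 1.76, 1.43, 1.51 and 2.25, and the last of these rests on 2.21 and 0.977 CPM. *KIN2*, a small cold-induced protein, went from 14.1 and 26.2 to 126 and 171 CPM. The ABA phosphatases *ABI1* and *ABI2* rose, with log2 fold changes of 0.90 and 1.08. *RAB18* and *RD20*, targets of ABA, gave 0.60 ± 0.24 and 0.24 ± 0.35 and did not pass the test.

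The 3 galactinol synthases tested, which start the synthesis of raffinose sugars, all rose. *GolS1* went from 86.0 and 183 CPM to 969.9 and 1264 CPM (3.05 ± 0.37). *GolS2* went from 0.653 and 2.71 CPM to 43.9 and 48.0 CPM (4.64 ± 0.35, adjusted *P* = 2.60e-06, edgeR), and was at 16.2 and 15.9 CPM after B/HS. *GolS2* was higher after A/HS than after B/HS (log2 difference 1.51 ± 0.28) and *GolS1* did not differ past the threshold (−0.67 ± 0.34). *GolS3* had 0 counts in both control libraries and 1.25 and 0.902 CPM after A/HS, and DESeq2 gave it no adjusted *P*. The raffinose synthase *SIP1* did not pass the test (0.26 ± 0.29), and *P5CS1*, of proline synthesis, fell from 18.47 and 22.3 to 14.5 and 13.2 CPM, the 1 fall of the list, where W1, W2 or W6 left out gave 0 falls. *MIPS2*, which makes the inositol that galactinol needs, was outside the list and went from 41.6 and 68.0 CPM to 822 and 774 CPM, 14.5-fold higher (adjusted *P* = 2.60e-06, edgeR).

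Among genes of oxidative stress, 3 of 12 were DE higher. *RHL41*, a zinc finger regulator of oxidative and light stress responses, went from 5.60 and 6.0 CPM to 54.5 and 81.2 CPM (3.54 ± 0.24). It was at 17.9 and 19.1 CPM after B/HS, and the log2 difference from B/HS was 1.87 ± 0.21 (adjusted *P* = 0.000318, edgeR). *APX2*, a heat-inducible cytosolic ascorbate peroxidase, went from 38.3 and 61.9 to 398 and 467 CPM, and *GSTU19*, a glutathione transferase, from 79.8 and 104 to 486 and 563 CPM. The catalases *CAT1* and *CAT3* did not pass the test (−0.08 ± 0.17 and −0.46 ± 0.24). The 6 rises of this list became 3 without W1, and the 3 DE members stayed DE without each library in turn. In the mitochondrial list, the oxidative stress marker AT2G21640 went from 1.77 and 3.0 to 15.36 and 25.8 CPM and *NDB2*, an alternative NAD(P)H dehydrogenase, from 8.58 and 11.3 to 47.3 and 47.7 CPM. *AOX1A*, the alternative oxidase, rose from 29.5 and 37.7 to 118 and 131 CPM, under the 4-fold threshold. The AAA protein *BCS1* was DE lower at −2.1 ± 0.25, and was −1.95 without W1 and −1.88 without W6, under the 4-fold threshold. The 2 DE higher members of this list became 5 without W2.

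Most proteasome and autophagy genes rose, by less than 4-fold. Of 41 proteasome subunits, 28 rose, 0 fell and 0 were DE, with a median of 0.81. Of 10 autophagy genes, 8 rose, with a median of 1.07, and 0 were DE (1 without W2 and 1 without W5). *NBR1*, the receptor that brings aggregates to autophagy, was at 43.6 and 45.0 CPM in control plants and 96.2 and 88.3 CPM after A/HS (1.06 ± 0.18, adjusted *P* = 0.00068, edgeR). *ATG8H* had the largest change of the ATG8 genes, from 5.41 and 9.94 to 23.0 and 37.0 CPM. The *NBR1* libraries did not overlap between the groups. Ribosomal proteins moved little, with 1 of 336 DE and a median of 0.23. Among other genes with large rises, AT5G47610, a RING/U-box protein, went from 11.1 and 19.1 CPM to 173 and 223 CPM and AT5G35320, annotated as a DBH-like monooxygenase, from 6.90 and 10.9 to 80.5 and 114 CPM. The largest fitted change of a well counted gene was that of AT3G46220, an E3 UFM1-protein ligase, from 4.95 and 6.0 CPM to 125 and 79.4 CPM (4.21 ± 0.38). AT3G46220 overlaps the end of *HSP17.4* on the opposite strand. Since the sources do not give strand handling, reads of *HSP17.4* and AT3G46220 cannot be told apart in the overlap.

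Splicing factors and clock genes had few DE members. Of 19 SR splicing factors, 5 rose, 2 of them DE. *SR45a* went from 26.6 and 39.9 CPM to 180.2 and 206 CPM (2.53 ± 0.25), and *SR30* from 32.2 and 49.9 to 155 and 213 CPM (2.16 ± 0.25). *SR30* was below 4-fold without W1 (1.89) and without W6 (1.93). Of 18 clock genes, 7 rose and 5 fell (3 falls without W1, W2 or W6). The DE lower members numbered 0, and 1 without W2 or without W5. The morning gene *LHY* fell from 20.8 and 15.9 CPM to 5.74 and 3.83 CPM (−1.92 ± 0.25, adjusted *P* = 7.31e-05, edgeR), while its partner *CCA1* rose from 32.1 and 33.9 to 53.7 and 45.5 CPM. *PRR9* was the 1 DE member, at 3.08 and 3.53 and 12.9 and 15.9 CPM (2.1 ± 0.22), and was 1.97 without W6. The time of day at harvest is not given in the sources used here, and its part in these values was not tested.

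More flavonoid genes passed the test against B/HS than against control. Of 13 tested, 4 rose and 1 fell against control, with a median of 0.17, while 7 were higher and 0 lower after A/HS than after B/HS. *TT4*, chalcone synthase, the first enzyme of the pathway, was at 54.0 and 50.7 CPM in control, 38.1 and 43.7 CPM after B/HS and 91.6 and 146 CPM after A/HS. *FLS1*, flavonol synthase, was at 16.2 and 17.5, 4.55 and 4.64, and 16.8 and 29.8 CPM in the same order. *TT4* rose against control (1.18 ± 0.23) and *FLS1* did not pass (0.46 ± 0.24), and both were higher than after B/HS, by 1.54 ± 0.23 and 2.34 ± 0.27 (adjusted *P* = 0.00156 and 0.000322, edgeR). *AT5MAT*, an anthocyanin malonyltransferase, was DE lower, at 3.17 and 2.94 CPM and 0.484 and 0.601 CPM. The regulator *MYB12* was called DE higher through W6, at 0.653 and 0.470 CPM and 1.11 and 6.24 CPM, and its log2 fold change of 2.72 was 1.03 without W6 and missed the adjusted *P* threshold without W2 (2.43). The 4 rises of this list became 2 without W6, and its 1 fall became 2.

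Many genes of the cell wall and of growth were lower. *TCH4*, a xyloglucan endotransglucosylase known for its response to touch, was at 107 and 58.9 CPM in control plants and 8.65 and 8.12 CPM after A/HS. It fell by 9.84-fold, a log2 fold change of −3.30 ± 0.27 (adjusted *P* = 3.28e-06, edgeR). Both B/HS libraries, at 63.9 and 60.5 CPM, lay within the range of the control libraries, and the log2 difference of A/HS from B/HS was −2.89 ± 0.27 (adjusted *P* = 8.23e-05). *FLA8*, a fasciclin-like arabinogalactan protein of the cell surface, was at 69.9 and 46.2, 22.9 and 20.4, and 5.33 and 6.99 CPM in control, B/HS and A/HS (−3.23 ± 0.25 against control). AT2G45180, a protein of the lipid-transfer type, took the most CPM in control of any well counted DE lower gene, 490.5 and 410.5 CPM, and was at 79.2 and 63.4 CPM after A/HS. AT4G22517, of the same type, had the largest fitted fall among well counted genes, from 98.5 and 50.5 CPM to 6.85 and 6.77 CPM (−3.45 ± 0.32). *FLA8*, AT2G45180 and AT4G22517 were also lower than after B/HS, by log2 differences of −1.81, −1.99 and −1.90.

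In most families of wall proteins, falls outnumbered rises. Of 11 alpha-expansins, which loosen the wall in growing cells, 8 fell, 3 of them DE, and 0 rose, with a median of −1.39. *EXPA1* was at 26.2 and 26.2 CPM in the control libraries and at 4.91 and 3.23 CPM after A/HS (−2.68 ± 0.23, adjusted *P* = 3.50e-06, edgeR). *EXPA4* gave −2.1 ± 0.32, and was −1.79 without W5, under the 4-fold threshold, while *EXPA8* gave −2.98 ± 0.56 from 3.64 and 3.29 CPM in control plants. Of 19 xyloglucan endotransglucosylases, 9 fell, 2 of them DE, and 2 rose, both DE, with a median of −0.97. The 2 that rose, *XTH5* and *XTH14*, were at 1.73 and 9.32 CPM and at 1.66 and 8.27 CPM in W5 and W6, high in W6 alone, and both are named after their values were seen. Further families were defined after the data had been seen. Of 80 genes with pectin or pectate in the product name, 45 fell and 4 rose (14 DE lower and 1 DE higher, median −1.11). Likewise, 24 of 43 GDSL lipases fell, 6 of them DE, and 1 rose (median −0.86), and 22 of 48 lipid transfer proteins fell, 8 of them DE, and 7 rose, 4 of them DE (median −0.70). Of 24 SAUR proteins, small auxin-induced proteins of elongating tissue, 10 fell, 5 of them DE, and 3 rose, 1 of them DE. AT4G38840 had the most counts of the DE SAUR genes, at 21.8 and 22.1 CPM and 2.70 and 1.95 CPM (−3.23 ± 0.26). *GER3*, a germin of the wall, went from 120.2 and 112 to 21.2 and 10.8 CPM, and the Ole e 1 family members AT3G16670 and AT3G16660 had log2 fold changes of −3.20 ± 0.25 and −2.85 ± 0.20.

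Genes of salicylic acid and immune signalling had the lowest median of all lists, −1.41. Of 23 tested, 16 fell, 6 of them DE, and 0 rose. *PR1*, the classical marker of the salicylic acid response, was at 109.9 and 121 CPM in control plants and 15.8 and 31.8 CPM after A/HS (−2.28 ± 0.27, adjusted *P* = 3.99e-05, edgeR). *FRK1*, a receptor kinase induced by bacterial flagellin, was at 20.1 and 23.2 CPM and 5.05 and 4.13 CPM (−2.23 ± 0.21). *CBP60G*, which activates salicylic acid synthesis, went from 13.9 and 10.9 to 1.18 and 2.93 CPM. No A/HS library reached a control library in these 3 genes. *WRKY33* and *PAD4*, regulators of defence, fell, with log2 fold changes of −1.68 and −1.77, while *NPR1*, the salicylic acid receptor, and *FMO1* did not pass the test (−0.11 ± 0.21 and 0.02 ± 0.22). The count of DE members, 6, was 3 without W6 and between 5 and 7 without each other library. *WRKY53*, at −2.01 ± 0.26, was −1.81 without W2 and −1.90 without W6, and *PR1* was −1.85 without W5. Against B/HS, *EDS1*, *SAG101*, *SARD1* and *FLS2* were higher after A/HS and *WRKY18* lower. *FLS2*, the flagellin receptor, was at 11.8 and 10.4, 0.455 and 1.86, and 4.36 and 3.08 CPM in control, B/HS and A/HS.

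In related families, falls outnumbered rises. Of 45 WRKY factors, 22 fell, 8 of them DE, and 4 rose, with a median of −1.01. *WRKY6* had the most counts of the DE members, at 52.2 and 34.1 CPM in control and 9.13 and 9.40 CPM after A/HS. Of 15 genes whose product names call them ethylene-responsive factors, 9 fell and 1 rose, and factors with other product names were not counted. Of 156 receptor kinases, leucine-rich and others (a family defined after the data had been seen), 64 fell and 6 rose. Of 117 disease resistance proteins, 42 fell and 5 rose. The lectin receptor kinase *RLK* (AT2G37710) was at 25.2 and 38.8 CPM and 4.15 and 3.83 CPM (−3.0 ± 0.30), and AT3G22060, a receptor-like kinase relative, at 46.0 and 47.3 and 8.65 and 6.24 CPM. *SZF1*, a zinc finger protein known from salt stress, went from 44.4 and 44.4 to 6.44 and 5.26 CPM. The peroxidase AT5G64120 went from 219 and 211 CPM to 33.6 and 29.1 CPM (−2.78 ± 0.21, adjusted *P* = 2.52e-06, edgeR). *RLK*, *SZF1* and AT5G64120 did not differ between A/HS and B/HS past the threshold, with log2 differences of −0.06 ± 0.33, −0.10 ± 0.25 and −0.60 ± 0.20. The same held for 3 other genes of large falls, AT5G44568 of unknown function, AT5G22920, a RING-type zinc finger protein, and the GPI-anchored AT5G19240, whose log2 fold changes against control were −2.94, −2.72 and −2.71.

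Most genes for the synthesis of aliphatic glucosinolates, sulphur-rich defence compounds of the mustard family, were lower. Of 13 genes, 10 fell, 3 of them DE, and 0 rose, with a median of −1.30. *CYP79F1*, which commits methionine derivatives to the pathway, was at 11.2 and 14.6 CPM and 1.66 and 1.73 CPM (−2.93 ± 0.33, adjusted *P* = 2.94e-05, edgeR). The regulator *MYB28* was at 18.4 and 21 CPM in control plants and 10.2 and 10.5 CPM after A/HS (−0.93 ± 0.19). Neither gene overlapped between the groups. *SOT17* gave −2.16 ± 0.31, and was −1.85 without W2 and −1.99 without W5. *CYP79F2* gave −2.44 ± 0.53, and was −1.80 without W6. *IGMT4*, a methyltransferase of the indole branch outside the list, went from 61.7 and 70.7 to 10.7 and 9.62 CPM. None of the 13 genes differed from B/HS past the threshold.

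Many histone genes fell. Of 44 core and linker histones, 24 fell, 12 of them DE, and 3 rose, with a median of −1.06. The H2B gene *HTB2* was at 87.3 and 57.7 CPM and 16.5 and 16.5 CPM (−2.13 ± 0.23). The H4 gene AT3G53730 was at 40.6 and 29.5 CPM in control plants and 3.67 and 3.16 CPM after A/HS (−3.35 ± 0.23, adjusted *P* = 1.76e-06, edgeR). Histone genes have near-identical copies, so the split of reads among them is uncertain, while each of these 2 genes was well below its control libraries. Of 16 genes of the cell cycle and DNA replication, 3 fell and 0 rose, with a median of −0.52, and the falls numbered 1 without W1. DE lower members numbered 0, and 2 without W6. Of all tested genes, 17.2 % fell, and the 3 falls among these 16 genes are near that share. The B-type cyclin *CYCB2;2* fell from 3.73 and 3.70 to 0.90 and 1.2 CPM, and *CYCB1;1* did not pass the test (−0.19 ± 0.46).

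Most photosynthesis genes did not pass the test, and 0 were DE. Of 31 light-harvesting and photosystem genes, 9 fell and 0 rose, with a median of −0.47, and 22 did not pass. *PSAN*, a subunit of photosystem I, had the largest fitted fall, from 350.4 and 377 CPM to 153 and 129 CPM (−1.37 ± 0.21, adjusted *P* = 0.000312, edgeR). Of 19 genes of the Calvin cycle and photorespiration, 5 fell and 14 did not pass, with a median of −0.26. *RBCS1A* fell from the values given above (log2 fold change −0.86, adjusted *P* = 0.0449), while Rubisco activase (*RCA*), at 1076 and 881 and 1358 and 848 CPM, did not pass. These counts depended on single libraries. The 9 falls of the first list became 3 without W1 and 2 without W6 (where 1 gene rose), and the 5 of the second became 1 without W1 and 1 without W6. In the chlorophyll list, 3 of 12 fell and *CRD1* rose (0.83 ± 0.23), and the falls numbered 0 without W1, 1 without W2, 5 without W5 and 0 without W6. The rises of that list numbered 2 without W6 and 0 without each other library. The share of nuclear counts on light-harvesting and photosystem genes was 4.70 % and 4.64 % in W1 and W2 and 3.0 % and 2.34 % in W5 and W6. Shares are parts of the same total, so the larger share of the chaperone lists after A/HS lowers the other shares.

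**Figure D4:**
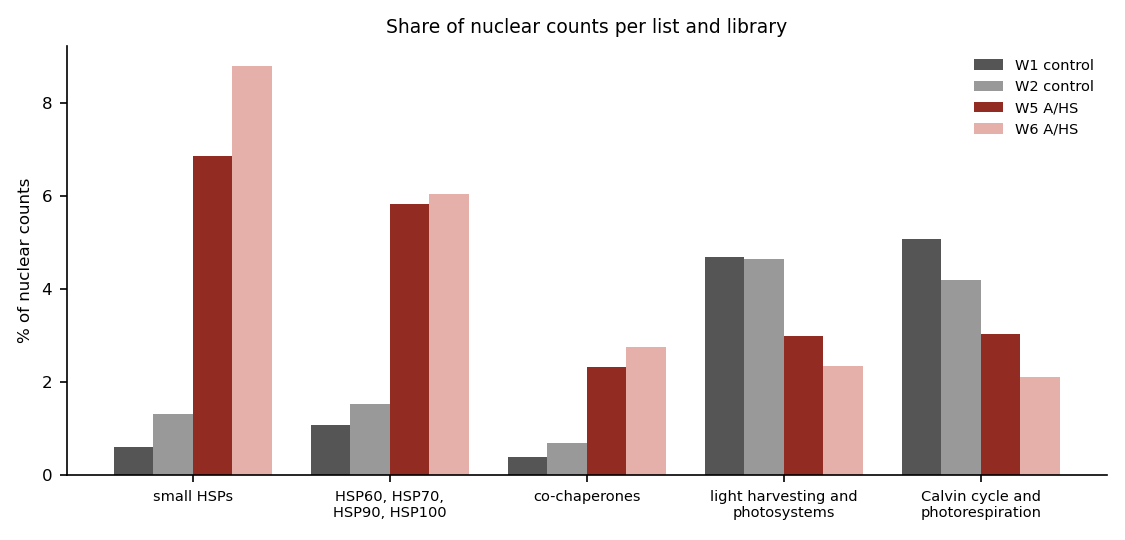
Percent of the nuclear counts of each library taken by the members of 5 lists, in control (W1, W2) and A/HS (W5, W6) libraries. The sHSPs went from 0.593 % and 1.32 % to 6.86 % and 8.80 %, while genes of light harvesting and photosystems went from 4.70 % and 4.64 % to 3.0 % and 2.34 %. A larger share of some lists lowers the share of the others.

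Other lists moved little as groups. Of 13 plasma membrane aquaporins, 4 rose and 3 fell against control, and 8 were lower and 0 higher after A/HS than after B/HS. *RD28*, an aquaporin first found in drying plants, was DE higher, at 14.2 and 21.9 CPM and 71.6 and 99.7 CPM (2.24 ± 0.25), with 1.98 without W1 and 1.996 without W6, just under 4-fold. Without W5, 2 aquaporins were DE higher, and without W2, 1 was DE lower. *PIP1A* fell from 43.2 and 43.7 to 12.9 and 18.6 CPM. Of 16 jasmonate genes, 2 rose and 1 fell (between 0 and 3 rises without each library, and without W5 2 falls, 1 of them DE), and 4 were higher than after B/HS, among them *OPR3* of jasmonate synthesis at 10.4 and 15.3, 5.10 and 4.88, and 12.9 and 12.8 CPM in control, B/HS and A/HS. *NRT2:1*, a high-affinity nitrate transporter, rose from 2.52 and 2.41 to 4.91 and 5.49 CPM (the 2 rises of the nitrate list became 0 without W1 or without W2), and the dual-affinity *NRT1.1* fell from 49.0 and 42.6 to 16 and 21.5 CPM. Of 9 warmth and auxin genes, 1 fell and 0 rose (1 without W5 and 1 without W6), and *PIF4*, the main regulator of growth in the warm, did not pass (−0.40 ± 0.27). Of 8 genes of lipid desaturation and remodelling, *FAD8*, a desaturase known to act in the cold, fell (−0.99 ± 0.22) and the lipase AT4G13550 rose (1.68 ± 0.20).

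Extensins, structural glycoproteins of the wall, stood out through 1 library. In this family, defined after the data had been seen, 11 of 17 tested genes were DE higher, with a median of 2.53 (−0.43 for B/HS against control). AT3G54580 was at 4.11 and 5.29 CPM in control plants and at 16.4 and 91.1 CPM in W5 and W6. *EXT6* was at 1.21 and 1.47 CPM and 4.57 and 27.9 CPM. Both A/HS libraries were above both controls, W6 by far the most. All 11 were DE without W5, 2 without W6, and 7 without W1 or without W2. W6 also held more of the 10 low-count root markers (11.7 CPM against 2.01 in W5). The part of root tissue in the extensin values was not tested. Over all DE higher genes, 66 of 510 had at least 3 times the CPM in W6 that they had in W5, and 13 of these 66 were DE without W6. Of the 66, 1 was well counted.

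The motifs shown above were counted in the windows of all tested genes. Of 17404 tested genes with a window of 250 bases, 73 (0.419 %) held a heat shock element of 3 units, on either strand. It was in 15 of 510 DE higher genes (2.94 %), 9 of the 163 well counted ones (5.52 %), and 0 of 575 DE lower genes. Of the HSF list, 4 of 22 held it, and of the sHSPs 2 of 18. It was in 0 of 21 genes of the HSP60, HSP70, HSP90 and HSP100 list and 0 of 13 co-chaperones. The ABA and immune lists also had 0, of 17 and 23 genes. The element of 2 units, which also counts every element of 3, was in 15.9 % of all windows, 22.0 % of DE higher windows and 101 of the 575 DE lower windows. By list, it was in 7 of 18 sHSPs, 6 of 22 HSF list genes, 3 of 13 co-chaperones and 2 of 21 other chaperones. It was in 8 of the 23 immune genes and 1 of the 17 ABA genes. The G-box (CACGTG) was in 7.47 %, 12.2 % and 4.0 % of all, DE higher and DE lower windows. The ABA-responsive element (ACGTGNC), which can overlap a G-box, was in 9.81 %, 13.7 % and 7.30 %. The DRE was in 5.42 %, 9.41 % and 4.52 %, and in 4 of the 17 genes of the ABA list. The W-box was in 28.0 %, 26.9 % and 35.3 %, and in 6 of the 23 genes of the immune list (26.1 %). These shares are descriptions of letters within the windows, with no test.

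**Figure D5:**
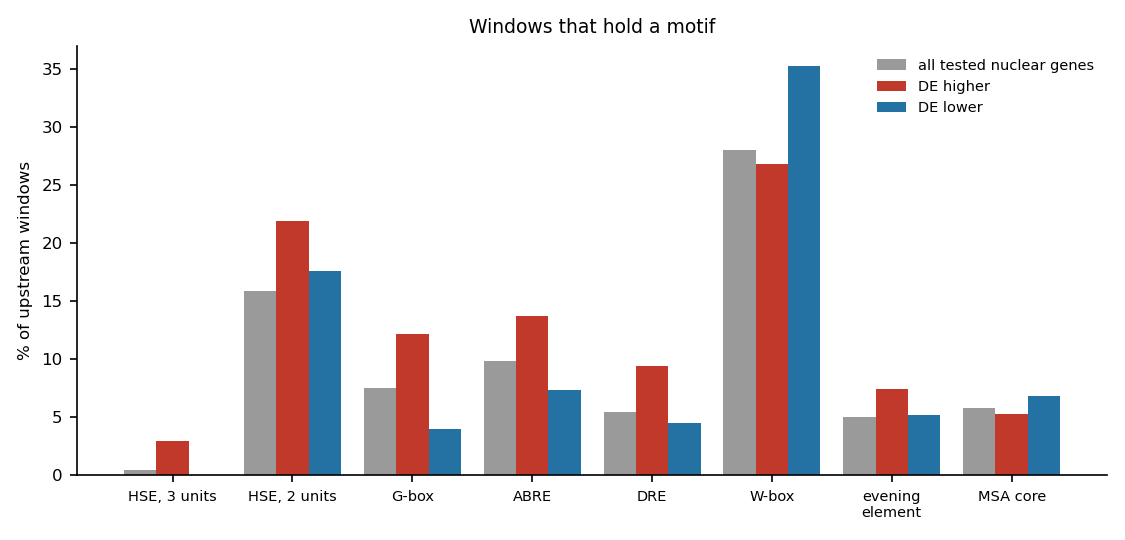
Percent of 250-base upstream windows that hold each motif on either strand, among all tested nuclear genes (grey), DE higher genes (red) and DE lower genes (blue). The heat shock element (HSE) of 3 units is rare in all groups (0.419 % of all windows, 2.94 % of DE higher and 0 of DE lower ones), and the W-box is the most frequent motif in each group. The evening element and the MSA core, plotted at the right, were in 7.45 % and 5.29 % of DE higher windows, beside 5.04 % and 5.83 % of all.

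The largest changes by lower bound came from genes with at most 3 counts in both libraries of 1 group, where a fold was taken against 3 counts in 1 library. There were 72 such genes among the DE higher and 61 among the DE lower. AT2G01050, a zinc ion binding protein, had 0 counts in both control libraries and 41 and 257 in W5 and W6, at least 39.6-fold higher, and was not called with DESeq2. Its bound rests mainly on W6, and was 10.14-fold without W6 and 69.0-fold without W5. The tRNA-Ser gene AT4G24565 had 0 counts in both and then 124 and 48, at least 21.8-fold higher (12.9-fold without W5). AT5G49920 had 0 and 1 counts and then 90 and 53, at least 18.24-fold higher, and it overlaps *cpHsc70-2*, so the genes can share reads. In the other direction, *PUP7*, a purine permease, had 55 and 104 counts in control plants and 3 in each A/HS library, at least 24.9-fold lower. AT5G54145, of unknown function, and AT1G63130, a TPR-like protein, were at least 15.68-fold and 14.8-fold lower. The folds of these 6 genes are bounds, not estimates.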

How the data were processed

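RNA-seq libraries of *A. thaliana* were compared between control and A/HS plants, 2 libraries each, with the 2 B/HS libraries in the same fit. The authors trimmed paired-end reads with the fastx toolkit, aligned them with TopHat 1.4.1 to TAIR10 and deposited raw counts per gene. The counting program and its use of strand are not given in the sources used here, so reads of overlapping genes cannot be told apart. The labels name Nextera XT with amplified cDNA, and the methods of the study name TruSeq, so which kit made these libraries is not settled.

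The deposited counts were tested with edgeR 4.0.16 (R 4.3.3): TMM scaling, filterByExpr, the quasi-likelihood test on all 6 libraries and Benjamini-Hochberg adjustment over all 17669 genes tested, organelles included. DE means an adjusted *P* under 0.05 and at least 4-fold. The SE given with a log2 fold change was derived from the test, as the size of the change divided by the square root of its F statistic. The common biological coefficient of variation was 0.166. Nuclear totals ranged from 2877735 to 4823686 in the libraries compared, which limits genes with few counts most. Tables and windows were handled in Python 3.11.15 with numpy 2.4.6 and pandas 2.3.3. The script was tested on simulated data with known changes.

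Named genes are the 15 well counted DE genes with the largest change in each direction, up to 4 DE genes of each list with the most counts, the 3 with the largest lower bound in each direction, and the 5 well counted DE genes with the highest CPM in each condition. Members named besides these, for their role or for a call that changed, were chosen after their values were seen, as were the families said to be so. The comparison, the lists and these rules were chosen with earlier results of these data known. Positions, products and windows come from RefSeq (TAIR10.1), to which all 32548 nuclear identifiers matched. Families outside the lists were found by keywords in the product names, so members with other product names were not counted. Alternatives were DESeq2 1.42.0, RLE scaling, other count filters, other thresholds, 4 libraries, nuclear genes alone, thinned counts, and each library left out. The list of ONSEN retrotransposon copies and the counts of *B. depauperata* were not analysed here.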

Additional observations from a re-analysis of the deposited data

How the results depend on the processing

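The count of 1085 DE genes (510 higher and 575 lower) was 487 (264 and 223) with at least 10 counts in every library, where fewer genes were tested, and 6163 (3176 and 2987) by the adjusted *P* alone, which drops the fold threshold. Under the other alternatives it lay between 1004 (thinned to the smallest nuclear total) and 1344 (every gene with at least 1 count), with 1005 by DESeq2. Leaving out 1 library gave between 916 and 1412 DE genes, between 433 and 695 higher and between 483 and 717 lower. DE higher genes made up 40.7 % of the calls without W6 and 54.2 % with at least 10 counts in every library. Of the well counted calls, between 135 and 162 of 163 higher and between 39 and 53 of 53 lower were shared with each alternative. For the 77 named genes, 815 of 832 values kept their direction and their call, 17 kept the direction only and 0 reversed. The 17 belong to 11 genes, all of them named in the report with the setting. Most named genes were picked for large or well counted calls in these same libraries, so their agreement follows largely from the choice. Over all calls, DESeq2 shared 462 of the 510 DE higher and 491 of the 575 DE lower genes. Thinned counts shared 432 and 438. List counts without each library were added after the data had been seen. No paired analysis was possible because the labels give no replicate numbers, and the numbers used here follow accession order and tie no library to another.

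Limits are the 2 libraries per group, the depth of W1, heat-induced transcripts higher in W2 than W1, and low-count root markers in W6. With 2 libraries a group, the sources of these differences cannot be settled and were not tested. A low-count gene can pass through a single library, as the extensins show.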

Other observations

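Of 80 long non-coding RNA genes tested, 17 were DE higher and 2 DE lower after A/HS, and of 36 small nucleolar RNA genes 4 were DE higher and 0 lower. Of 80 genes annotated only as non-coding RNA, 1 was DE higher and 9 DE lower. Of 140 F-box proteins, 7 were DE higher and 3 DE lower. Over all tested genes, 2.93 % were DE higher and 3.30 % DE lower. *FBS1*, an F-box protein induced by stress, was at 5.78 and 6.17 CPM in control plants and at 48.1 and 66.6 CPM after A/HS (log2 fold change 3.26 ± 0.23). Cytochrome P450 genes were lower more often than higher, with 40 of 104 falling and 12 rising by the adjusted *P* of edgeR.

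Of the 510 DE higher genes, 30 (5.88 %) lay within 1000 bp of another DE higher gene with at least 2 times their CPM, against 202 (1.2 %) of the tested genes that were not DE higher. Of these 30, 7 overlapped the stronger gene, 13 lay downstream and 10 upstream of it. Of the 163 well counted DE higher genes, this held for 2, AT3G46220 beside *HSP17.4* and AT4G25210 beside *HSP23.6-MITO*. The part of the neighbouring gene in their counts was not tested.

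At least 3 times the CPM in W5 that they had in W6 was found for 6 DE higher genes. AT2G01330 was at 324 CPM in W5 and 2.26 CPM in W6, and AT2G01080 at 30.1 CPM and 0.977 CPM. *ADH1*, alcohol dehydrogenase, was on the other side, at 1.49 and 0.882 CPM in control plants, 4.91 CPM in W5 and 15.71 CPM in W6.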
